A study of Mus musculus with 6 samples.

Results

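Tmem176a and Tmem176b are adjacent mouse genes for small membrane proteins that cross the membrane several times. They were chosen by their log2 difference between M(CSF2) and M(CSF1) cells, as neighbouring ion channel genes among the 12 largest falls, so that difference is described here without a test. Each gene is named by exactly 1 probe set of its own, which makes 2 genes out of 19938 with a value in the series. The cells were macrophages grown from bone marrow of C57BL/6 mice, for 7 days with the growth factor CSF1 (M-CSF) in M(CSF1) and for 7 days with CSF2 (GM-CSF) in M(CSF2). Sorted cells were put into Trizol and their RNA was read on Affymetrix Mouse Gene 1.0 ST arrays, 3 arrays per group, labelled as biological replicates. The labels do not say how many mice were used, nor the marker of the sort, and the error behind each p-value is the scatter of these 6 arrays, which may be partly technical. The labels name no genetic change, and both groups were cultured with a growth factor, so neither is an untreated state.

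The TMEM176 proteins are relatives of the MS4A family, to which CD20 belongs. They sit in the Golgi and in endosomal and lysosomal membranes, where TMEM176B has been described as a cation channel that acts on phagosomal pH and cross-presentation in dendritic cells. Both genes are known from immature dendritic cells and macrophages, with lower expression when dendritic cells mature. TMEM176B has also been described as a brake on the NLRP3 inflammasome.

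Both genes lie on mouse chromosome 6 in RefSeq's GRCm38.p6 annotation. Tmem176a (Entrez 66058, probe set 10538150) is on the plus strand at chr6:48841483-48845364, a span of 3882 bases with 2 RefSeq transcripts. Tmem176b (Entrez 65963, probe set 10544596) is on the minus strand at chr6:48833811-48845948, a span of 12138 bases with 19 RefSeq transcripts. The longest Tmem176b span therefore covers Tmem176a entirely on the other strand. The exons that the 2 probe sets read were not analysed here, so each signal is given as that of the gene the platform annotation names. The table of start windows lists 2 starts for Tmem176a and 3 for Tmem176b, all within 668 bases. No listed window covers the end of the longest Tmem176b span at chr6:48845948, so a start there was not searched. The nearest listed starts of the 2 genes lie 109 bases apart and point away from each other. The 108 bases between them, at chr6:48841375-48841482, are printed below as read towards each gene, because they precede both starts. Capitals mark the only matches, among 10 motifs searched on both strands, that this stretch held.

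Tmem176a strand: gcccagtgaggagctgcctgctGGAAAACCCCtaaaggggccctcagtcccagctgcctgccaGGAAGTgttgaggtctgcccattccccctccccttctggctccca

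Tmem176b strand: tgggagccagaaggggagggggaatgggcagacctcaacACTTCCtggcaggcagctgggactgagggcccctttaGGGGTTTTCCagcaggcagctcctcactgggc

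The shorter match is GGAAGT, the core bound by ETS factors such as PU.1, the factor that directs macrophage development. It begins 45 bases before the first Tmem176a start and, read from the other side, 69 bases before the nearest Tmem176b start. Read along the Tmem176b strand it appears as ACTTCC. The longer match is a form of the NF-kB site, GGG and TTTCC with 2 bases of any kind between them, found on the Tmem176b strand. It begins 86 bases before Tmem176a and 32 bases before Tmem176b. The 2 matches do not overlap. Of 32817 start windows of 300 bases in the mouse table, 23.8% held GGAAGT and 1.63% held the NF-kB form. A second GGAAGT lay in the window of the other Tmem176a start, 91 bases before it, and that same site lay in the window of the nearest Tmem176b start. The windows of the other 2 Tmem176b starts, 346 and 495 bases from the first Tmem176a start, held none of the 10 motifs. No match in any of the 5 windows was found for the other 8 motifs. For macrophage factors these were TTGCNNAA for C/EBP, which 10.8% of all windows held, TGANTCA for AP-1 (7.81%) and TGCTGA, part of the MAF site (19.5%). The composite site of IRF and PU.1, searched as GGAA and GAAA with 2 bases between them, occurred in 2.72% of windows, and TTCNNNGAA, the STAT site, in 8.29%. The core of the ROR site, AGGTCA, occurred in 16.3% of windows, the E-box CACGTG in 7.15% and the TATA box, searched as TATAAA, in 13.6%. No match says only that these letters are not in these windows. A match of letters is a description of the sequence and not a measured binding site.

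**Figure D1:**
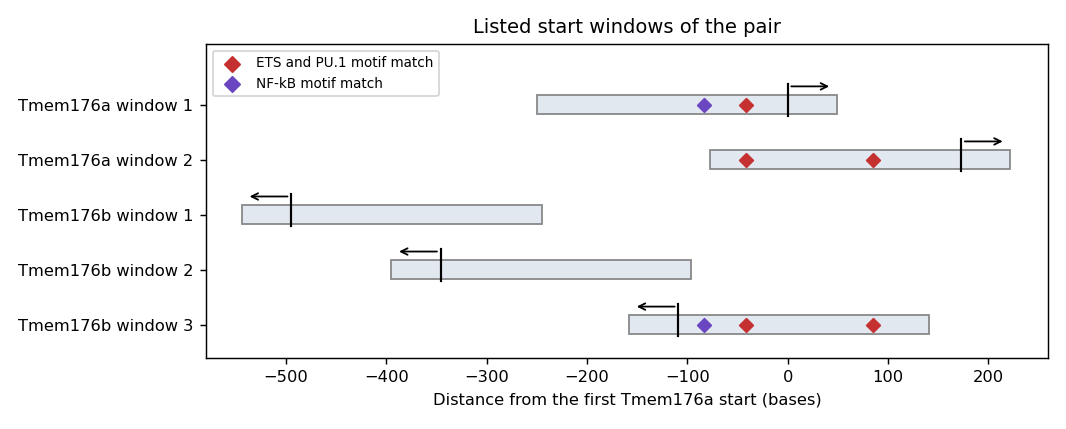
Each grey bar is a listed start window of 300 bases, placed by its distance in bases from the first Tmem176a start, with an arrow at the start in the direction of transcription and diamonds at motif matches. The nearest starts are 109 bases apart, and the stretch between them holds 1 ETS and PU.1 match and 1 NF-kB match.

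On the deposited log2 scale Tmem176a read 9.56, 9.24 and 8.95 on the 3 M(CSF1) arrays and 3.94, 3.91 and 3.93 on the 3 M(CSF2) arrays. All M(CSF1) arrays were high, all M(CSF2) arrays were low, and 5.01 separated the lowest of one group from the highest of the other. The means were 9.25 ± 0.31 and 3.93 ± 0.01 (SD, n = 3 arrays each). The difference was -5.33 (SE 0.14), a 40.1-fold lower signal in M(CSF2).

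Tmem176b read 10.59, 10.41 and 10.32 in M(CSF1) and 3.80, 4.87 and 3.84 in M(CSF2). The groups were again apart, by 5.45, and within M(CSF2) replicate 2 stood above the other 2 arrays. The means were 10.44 ± 0.14 and 4.17 ± 0.60 (SD, n = 3 arrays each). The difference was -6.27 (SE 0.27), a 77.1-fold lower signal, and -6.62 or 98.1-fold without M(CSF2) replicate 2. Among all genes Tmem176b had the sixth largest fall in signal (place 6) and Tmem176a place 12. Groups failed to overlap in 38.9% of all genes, and 0.316% of all genes were called lower and at least 8-fold lower, and nothing is read from these shares, since the size of the difference chose the pair.

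**Figure D2:**
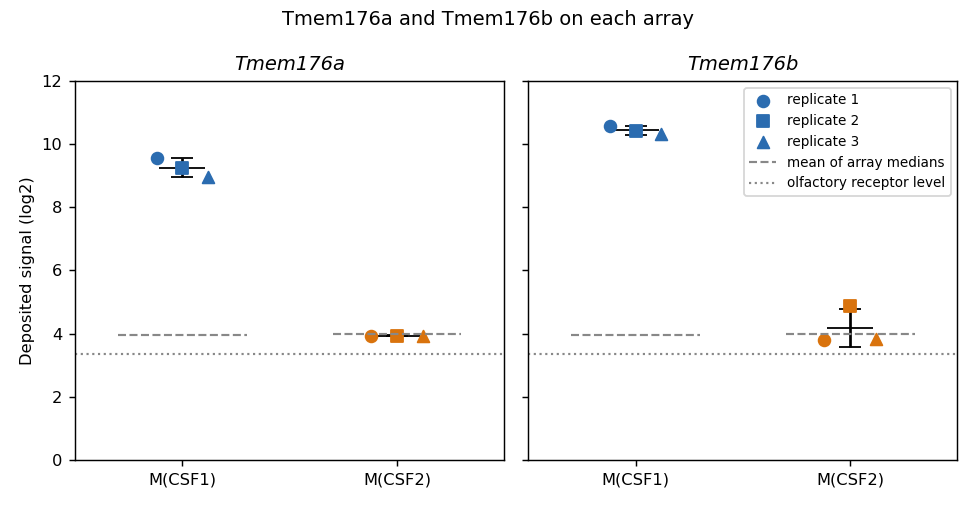
Points are single arrays (log2 deposited signal), horizontal marks with bars are the mean ± SD of 3 arrays, dashed lines the mean of the array medians and the dotted line the olfactory receptor level of 3.36. All M(CSF1) values exceed 8.9 in both genes, and the M(CSF2) values lie near the array medians except Tmem176b on replicate 2, at 4.87.

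The low values in M(CSF2) were set against genes that macrophages are not expected to transcribe. The 95th percentile of 1015 olfactory receptor genes, averaged over the 6 arrays, was 3.36 on the log2 scale. Tmem176a lay above it on every M(CSF2) array, with 1.67% to 1.97% of olfactory receptor genes at or above its value on the same array. For Tmem176b these shares were 2.27% on replicate 1, 0.3% on replicate 2 and 1.87% on replicate 3. The medians of the M(CSF2) arrays were 3.98 to 4.00, so Tmem176a lay below the median probe set on all 3 and Tmem176b on 2 of 3. On the M(CSF1) arrays no olfactory receptor gene reached either gene. At signals this low a ratio of array signals can understate a ratio of transcripts, and fewer cells that express a gene cannot be told apart from less RNA in each cell.

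The arrays of a group did not vary alike in the 2 genes. In M(CSF1) the SD of Tmem176a, 0.31, was exceeded by 2.78% of all genes, and that of Tmem176b, 0.14, by 33%, where the median gene had 0.10. In M(CSF2) it was the reverse. The SD of Tmem176b, 0.60, was exceeded by 0.0451% of genes, against 95.5% for Tmem176a and a median gene at 0.11. In M(CSF1) both genes read highest on replicate 1 and lowest on replicate 3. In M(CSF2) Tmem176a was lowest on the array where Tmem176b was highest, by a margin of 0.02.

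Likeness to other genes was measured as the root mean square distance between log2 profiles over the 6 arrays, each centred on its own mean. Nearest to Tmem176a were Apoe (0.15), the lipid carrier apolipoprotein E, C1qc (0.18), a chain of complement C1q, Shisa3 (0.22), the complement regulator Cd55 (0.23) and Spic (0.23), the transcription factor of red pulp and iron-recycling macrophages. Apoe read 11.26, 11.02 and 10.80 in M(CSF1) and 6.07, 5.97 and 5.80 in M(CSF2). C1qc read 9.43, 9.32 and 9.20 against 4.21, 4.13 and 3.76. In both genes M(CSF1) replicate 1 was the highest array, as in Tmem176a. The same held in Tmem176b and in every other gene listed here as nearest to either member. All were picked by distance over these same 6 arrays, so a shared order of arrays is partly built in.

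Nearest to Tmem176b were Raver2 (0.35), an RNA-binding protein gene, the lectin gene Cd209g (0.35), the activating receptor gene Cd300e (0.35), C1qb (0.49) and Cd55 (0.52). Cd300e read 10.12, 10.09 and 9.90 in M(CSF1) and 4.11, 5.08 and 4.17 in M(CSF2), with replicate 2 above the other 2 arrays as in Tmem176b. Cd209g read 4.37, 5.81 and 5.41 in M(CSF2), with replicate 2 highest there too. The 2 members were 0.60 apart from each other. That put Tmem176b at place 22 in the order of distance from Tmem176a, and Tmem176a at place 7 from Tmem176b. A distance on this scale is governed by the size of the group difference, so it favours other genes with large falls.

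**Figure D3:**
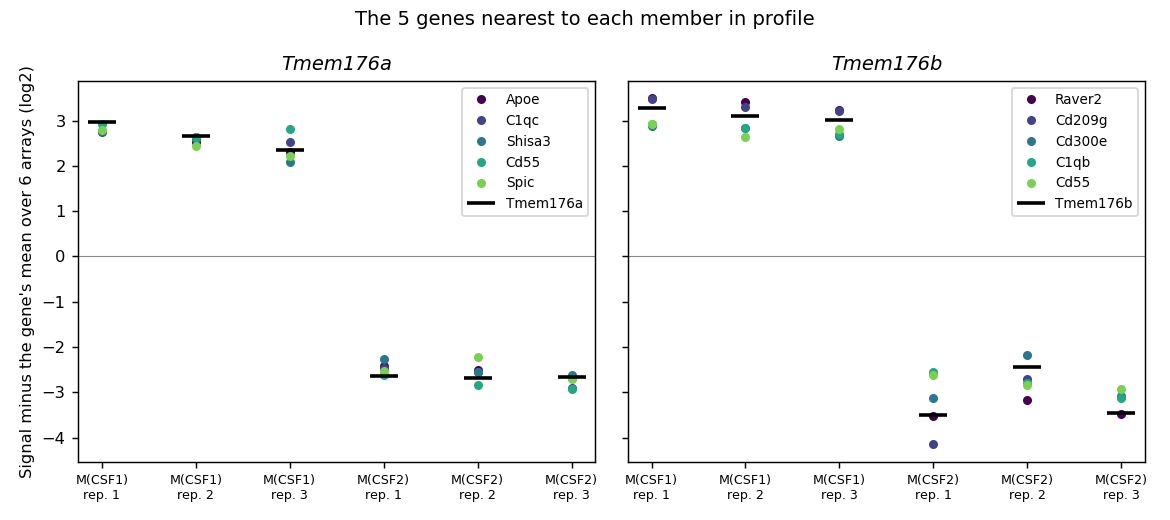
Each point is a gene's log2 signal on an array minus that gene's mean over the 6 arrays, for Tmem176a and Tmem176b (black dashes) and the 5 genes nearest to each. The nearest genes of Tmem176a lie within an RMS distance of 0.23, those of Tmem176b within 0.52, and on M(CSF2) replicate 2 Cd300e lies above its other M(CSF2) arrays, as Tmem176b does.

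Just inside the 12 largest falls stood Fgl2 (-5.42) and Tmem176a (-5.33), and just outside C1qc (-5.28) and Ms4a4a (-5.09). Tmem176b at -6.27 stood between Cd209g (-6.65) and C1qb (-5.65).

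No fall of the pair's size was seen in the genes around it, but many of these were too dim in M(CSF1) to show one. The pair was also chosen from the 12 largest falls of 19938 genes. Falls of that size are rare among all genes, so nothing is read from their absence here. Of the 20 examined, 8 did not rise above the olfactory receptor level on any array. Of the 10 protein-coding genes on each side, 1 was called higher and 1 lower by limma (2 of 20, against 27.5% of all genes called, 11.9% higher and 15.6% lower). The median difference of the neighbours was 0.12, against 0.04 over all genes. On the side of Tmem176b lies the GIMAP cluster, GTPase genes of lymphocyte survival. Its 8 genes read between 2.04 and 3.84 on all arrays, 5 of them at or below the olfactory receptor level throughout, and none was called in the fit to all arrays (limma, 1 higher and 0 lower at an unadjusted p under 0.05). Gimap3, 63.0 kb from the pair, read 2.34, 2.04 and 2.18 in M(CSF1) and 2.23, 2.50 and 2.25 in M(CSF2), and Gimap5, 79.6 kb away, had a difference of 0.15 (adjusted p = 0.219). Gimap9 was called higher without M(CSF2) replicate 1 (difference 0.40) and Gimap1 without M(CSF2) replicate 3 (difference 0.43), both named after their values were seen, which raises the count of higher neighbours from 1 to 2 in each case.

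On the side of Tmem176a the nearest gene is Gm7932, 14.4 kb away, which read 3.87, 4.02 and 4.02 in M(CSF1) and 4.25, 4.18 and 4.17 in M(CSF2) (difference 0.23, limma adjusted p = 0.0571). Aoc1, the gene of a diamine oxidase, had means of 2.74 and 2.91, below the olfactory receptor level. The nearest neighbour that passed the test was Gpnmb, a lysosomal glycoprotein gene of macrophages, 190.6 kb away. It read 10.34, 9.74 and 9.61 in M(CSF1) and 12.11, 12.12 and 12.16 in M(CSF2), the groups lying apart in the direction opposite to that of the pair. Gpnmb rose by 2.23 (SE 0.18, limma adjusted p = 5.8e-05). The splicing factor gene Tra2a, 398.0 kb away, fell by 0.71 (adjusted p = 0.0025). With the mean of its probe sets its difference was -0.18 (adjusted p = 0.0887, range over its 12 alternatives 0.00064 to 0.0887).

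**Figure D4:**
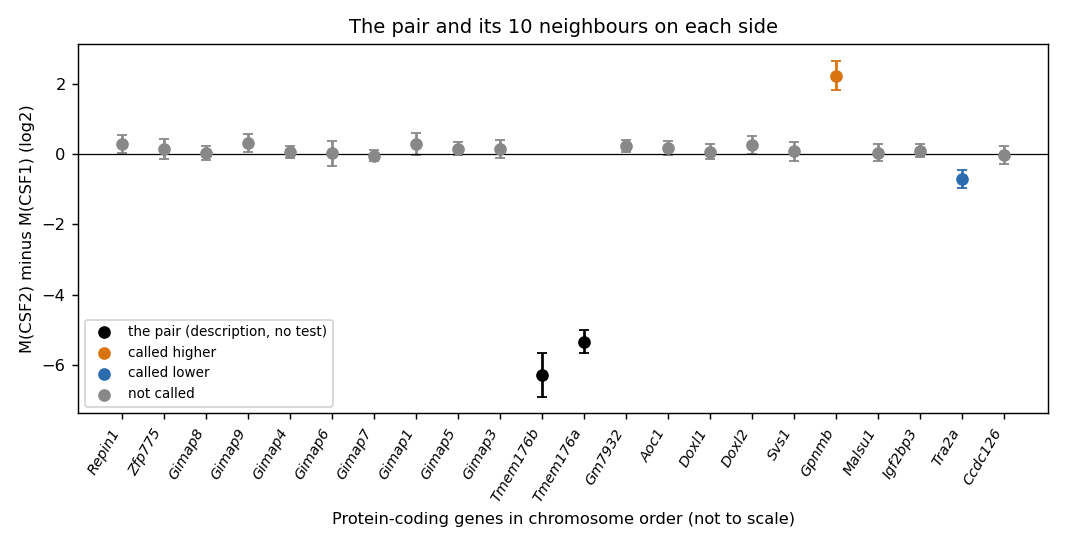
Points are log2 differences, M(CSF2) minus M(CSF1), with 95% intervals from limma, for Tmem176b, Tmem176a and the 10 protein-coding genes on each side in chromosome order. The pair, chosen by the size of its fall, stands at -6.27 and -5.33. Of the neighbours 18 of 20 were not called, and Gpnmb lies at 2.23 on the other side of 0. Of the 20, 8 did not rise above the olfactory receptor level on any array and had no signal to lose.

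The MS4A genes, relatives of the pair, were more often lower than higher in M(CSF2). Of 18 measured members 6 fell, 1 rose and 11 were not called (38.9% called against 27.5% of all genes, 11.9% higher and 15.6% lower, median -0.08 against 0.04). Of the 18, 8 did not rise above the olfactory receptor level on any array. Ms4a6c read 10.45, 10.41 and 10.41 in M(CSF1) and 5.42, 4.42 and 4.98 in M(CSF2). Its groups were far apart, and unlike Tmem176b it was lowest on M(CSF2) replicate 2. It fell by 5.48 (SE 0.22, limma adjusted p = 2.2e-06), a size between those of the 2 members. Ms4a4a fell by 5.09 (adjusted p = 1.3e-06) and Ms4a6b by 4.80 (adjusted p = 2.5e-07), both also lowest on M(CSF2) replicate 2, at 3.96 and 3.65. Smaller falls came in Ms4a4c (-3.93), Ms4a7 (-2.03) and Ms4a6d (-1.26), named after their values were seen. Ms4a6d stayed bright, with a mean of 11.76 in M(CSF1) against 10.50 in M(CSF2), so the family did not move as a block. The member that rose was Ms4a8a, from 3.71 ± 0.38 to 5.57 ± 0.11 (SD, n = 3 arrays each, limma adjusted p = 0.00016).

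Inflammasome genes moved in both directions. Of 29 measured, 7 rose, 7 fell and 15 were not called (48.3% called against 27.5% of all genes, 11.9% higher and 15.6% lower, median 0.07 against 0.04). The share over all genes includes 5710 of 19938 that did not rise above the olfactory receptor level on any array, against 1 of 29 here. Among the 9969 genes kept by a filter on dim genes, 5277 were called. No excess is therefore read from 48.3%, and the same background applies to the lists below. The sensor Nlrp3, the protein whose activation TMEM176B is described to limit, read 5.73, 5.64 and 5.75 in M(CSF1) and 8.15, 7.96 and 8.14 in M(CSF2). Every M(CSF2) array was above every M(CSF1) array, the opposite order to that of the pair. Nlrp3 rose by 2.38 (SE 0.08, limma adjusted p = 1.2e-06), a 5.2-fold difference. The cytokine genes Il1a and Il1b rose by 4.22 (adjusted p = 3.7e-07) and 1.42 (adjusted p = 1.4e-05), and the channel gene Panx1 by 1.96 (adjusted p = 2.2e-05).

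The adaptor Pycard (ASC) gave -0.05 (SE 0.07, adjusted p = 0.659), with 6.47 ± 0.06 and 6.42 ± 0.08 in M(CSF1) and M(CSF2) (SD, n = 3 arrays each). The protease Casp1 fell by 0.42 (adjusted p = 0.0141), but without M(CSF1) replicate 2 it gave -0.38 and was not called (adjusted p = 0.0693, range over its 12 alternatives 0.0072 to 0.0693). Mefv, the gene of pyrin, fell by 1.43 (adjusted p = 1.5e-05), the cytokine Il18 by 1.02 (adjusted p = 0.00044) and the pyrin-binding protein Pstpip1 by 0.77 (adjusted p = 0.0028).

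Genes for ion transport in endosomes, lysosomes and phagosomes were more often higher than lower, 15 against 6 of 38 measured, with 17 not called (55.3% called against 27.5% of all genes, 11.9% higher and 15.6% lower, median 0.18). All 38 rose above the olfactory receptor level on some array. Since 5277 of the 9969 genes kept by the filter on dim genes were called, no excess is read from 55.3%. The V-ATPase, the proton pump that acidifies these compartments, had 10 of 18 subunits and accessory proteins higher and 0 lower (limma, 13 higher and 1 lower at an unadjusted p under 0.05). Of all genes 11.9% were higher, and 2183 of the 9969 kept by the filter on dim genes. The pump did not rise as a whole. Of the Atp6v1 subunits only Atp6v1e1 (0.45) and Atp6v1f (0.35) were called. Among the 8 genes not called, Atp6v1a (-0.09), Atp6v1b2 (-0.13), Atp6v1c1 (-0.18) and Atp6v1g1 (-0.27) had differences below 0. The subunit Atp6v0d2 rose most, by 2.81 (SE 0.18, adjusted p = 1.8e-05). The other transporters split, with 5 of 20 higher and 6 lower. The proton channel Hvcn1 read 8.22, 8.22 and 7.71 in M(CSF1) and 10.37, 10.24 and 10.45 in M(CSF2), a rise of 2.30 (adjusted p = 1.9e-05). Of the phagocyte oxidase, which feeds electrons into the same compartment, Cyba rose by 0.89 (adjusted p = 5.7e-05) and Cybb gave 0.10 (SE 0.12, adjusted p = 0.622).

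The 3 largest falls in this list were in Slc9a9, Tpcn1 and Clcn5. Slc9a9, an endosomal sodium-proton exchanger, read 6.92, 6.79 and 6.45 in M(CSF1) and 3.29, 3.23 and 3.71 in M(CSF2). It lay below the olfactory receptor level on 2 of 3 M(CSF2) arrays, and it fell by 3.31 (SE 0.16, adjusted p = 5.4e-06). The 2-pore channel Tpcn1, which conducts cations out of endosomes and lysosomes, read 8.70, 8.60 and 8.39 against 6.08, 5.79 and 6.12, a fall of 2.57 (adjusted p = 4.2e-06). The chloride-proton exchanger Clcn5 fell by 1.61 (adjusted p = 1.9e-05). Each of these 3 was lower in every M(CSF2) array than in any M(CSF1) array, and each fell by less than either member. Groups lay apart in 26 of 38 genes of this list and in 38.9% of all genes. As these 3 were picked as its largest falls, nothing is read from their separation. Nor is anything read from their smaller size, since the pair was chosen by its size.

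Potassium and calcium channels of the cell surface and stores changed in 6 of 22 cases, 4 higher and 2 lower (27.3% called, median 0.02), a share near the 27.5% of all genes. The potassium channel Kcnn4 and the cation channel Trpv2 rose by 1.37 each (adjusted p = 4.7e-05 and 7.9e-06), and the store-operated channel Orai1 by 0.62 (adjusted p = 0.00049). The potassium channel genes Kcnab2, a beta subunit, and Kcnj2, an inward rectifier, fell by 0.66 each (adjusted p = 0.00034 and 0.00076).

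MHC class II presentation, in which the pair has been described to act in dendritic cells, had 11 of 13 measured genes higher, 1 lower and 1 not called (92.3% called against 27.5% of all genes, 11.9% higher and 15.6% lower, median 1.58). The class II chain H2-Aa read 5.48, 5.26 and 4.86 in M(CSF1) and 9.44, 9.38 and 9.31 in M(CSF2). It was named as the largest rise of its list, so nothing is read from its direction against that of the pair. H2-Ab1 (3.93, adjusted p = 5.1e-07) and the invariant chain Cd74 (3.95, adjusted p = 1.5e-06) rose by similar amounts. Marchf8, a ubiquitin ligase that removes membrane proteins from the surface, fell by 0.56 (adjusted p = 0.0051).

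Cross-presentation genes, which carry exogenous antigen to MHC class I, had 8 of 22 higher, 2 lower and 12 not called (45.5% called against 27.5% of all genes, 11.9% higher and 15.6% lower, median 0.14). With 5277 of the 9969 genes kept by the filter on dim genes called, no excess is read from 45.5%. The peptide transporter genes Tap2 (0.87, adjusted p = 8.2e-05) and Tap1 (0.69, adjusted p = 0.00095) and the loading factor Tapbp (1.09, adjusted p = 0.00074) rose. The GTPase Rac2, which guides oxidase assembly at phagosomes, fell by 1.02 (adjusted p = 5.2e-05). The chaperone Canx fell by 0.52 (adjusted p = 0.0098), but not past the threshold without M(CSF1) replicate 2 (-0.52, adjusted p = 0.0504, range over its 12 alternatives 0.0037 to 0.0504). The count of higher genes was 5 without M(CSF1) replicate 2, M(CSF1) replicate 3, M(CSF2) replicate 1 or M(CSF2) replicate 3, and that of lower genes 1 without M(CSF1) replicate 2.

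Genes of dendritic cell maturation had 14 of 27 higher, 8 lower and 5 not called (81.5% called against 27.5% of all genes, 11.9% higher and 15.6% lower, median 0.45). The chemokine Ccl17 read 3.56, 3.91 and 4.13 in M(CSF1) and 12.30, 12.29 and 12.39 in M(CSF2). As the largest rise of its list it was picked for its direction, so no contrast with the pair is drawn. The checkpoint ligand Pdcd1lg2 and the chemokine Ccl22 rose by 6.03 (adjusted p = 4.5e-07) and 5.84 (adjusted p = 2.2e-06). The actin-bundling gene Fscn1, a classical maturation marker, fell by 1.78 (adjusted p = 0.00092), the survival gene Birc2 by 1.16 (adjusted p = 5.7e-05) and the T cell ligand Icosl by 1.00 (adjusted p = 0.0012). With the mean of its probe sets Birc2 fell by 0.61 and was still called. The nuclear receptor gene Rora rose by 0.48 from 3.54 to 4.03 (adjusted p = 0.0105), close to the olfactory receptor level. The phagosomal metal transporter gene Slc11a1 has no probe set of its own among those named and was not analysed here.

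**Figure D5:**
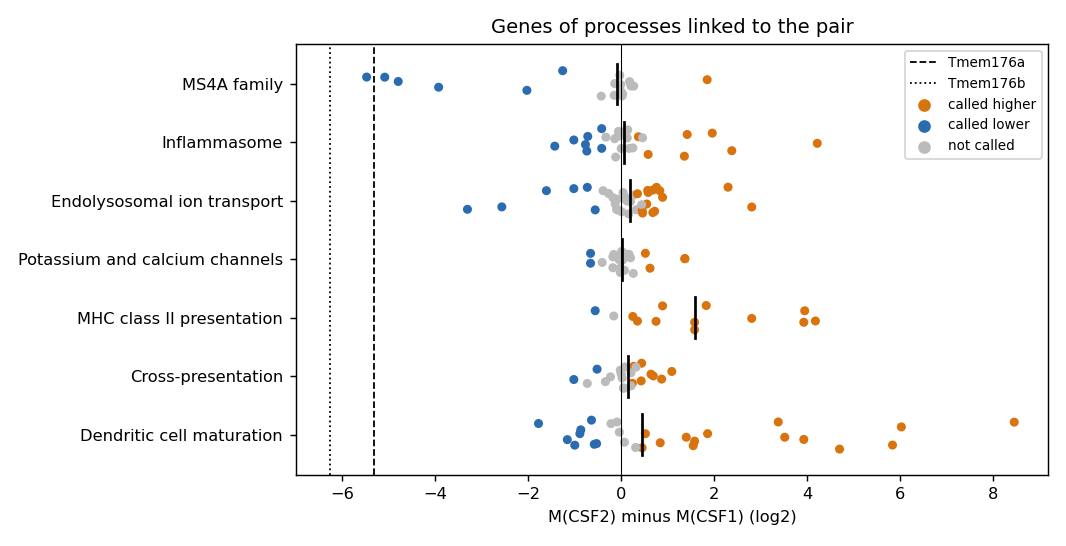
Each point is a gene's log2 difference, M(CSF2) minus M(CSF1), in 7 lists, coloured by its limma call, with the list median as a bar and the differences of Tmem176a and Tmem176b as vertical lines. Ms4a6c at -5.48 is the listed gene nearest to the lines, while Ccl17 at 8.46 and H2-Aa at 4.18 lie on the other side of 0.

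Macrophage identity genes were present in both groups. Means of the 9 measured ran from 6.08 to 12.43 in M(CSF1) and from 5.69 to 11.95 in M(CSF2), with 3 higher, 3 lower and 3 not called (66.7% called against 27.5% of all genes). The LPS co-receptor Cd14 rose by 1.71, the lysosomal glycoprotein Cd68 by 0.89 and the CSF1 receptor Csf1r by 0.60. The Fc receptor Fcgr1 fell by 1.23, Adgre1 (F4/80) by 1.18 and the lysozyme gene Lyz2 by 0.48. Each of these differences was smaller in size than those of the pair, but the pair was chosen by its size, so nothing is read from this. Arrays of the same group correlated at 0.995 to 0.997 over all probe sets and arrays of different groups at 0.954 to 0.959.

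Most markers of other cells were not called, but a few bright ones were higher in M(CSF2), where the pair was low. Of 10 neutrophil markers 3 were called higher and 7 were not called (30.0% called against 27.5% of all genes). These were the collagenase gene Mmp8 (4.44), the calcium-binding protein gene S100a8 (2.37) and Ltf (0.31). The summed signal of the list, on the log2 scale, was 7.67 to 8.16 in M(CSF1) and 11.24 to 11.46 in M(CSF2), most of it from Mmp8, whose mean in M(CSF2) was 11.04. Ly6g, Ngp, Retnlg, Cxcr2 and Ltf were not above the olfactory receptor level on any array.

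Of 10 mast cell and basophil markers 4 were higher (40.0% called), among them the histamine-making enzyme Hdc (4.43), the transcription factor Gata2 (2.52) and the receptor Kit (1.32). Their sum was 6.61 to 6.89 and 9.01 to 9.23, with Hdc the brightest at a mean of 8.27 in M(CSF2). Cpa3, Mcpt4, Mcpt8, Cma1, Fcer1a and Ms4a2 were not above the olfactory receptor level on any array. Of 12 dendritic cell markers 4 were higher (33.3% called), among them the integrin Itgax (5.05), the chemokine receptor Ccr7 (3.93) and the transcription factor Irf8 (0.72). Their sum was 8.78 to 8.83 and 11.36 to 11.61, with Itgax the brightest at a mean of 10.84 in M(CSF2). Xcr1, Clec9a, Kmo and Dpp4 were not above the olfactory receptor level on any array. Of 10 lymphoid markers the cytokine receptor Il7r rose (3.68), the B cell receptor component Cd79b (-2.20) and the T cell co-receptor Cd4 (-0.87) fell, and 7 were not called (30.0% called). Their sum was 8.19 to 8.48 and 9.31 to 9.50, with Il7r the brightest at a mean of 9.08 in M(CSF2), while Cd3g and Ncr1 were not above the olfactory receptor level on any array. Whether other cells were present in the cultures, or had a part in the low values of the pair, was not tested.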

How the data were processed

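The authors' deposited table holds log2 signals of 28941 probe sets on 6 arrays. Base 2 was taken from the range of the values, since no source used here states the scale. Per the submitters' processing notes MAS5 was used, and its parameters are not given in the sources used here. Both members and all gene lists were chosen with earlier results of these data known. Probe sets with exactly 1 gene in the platform annotation (21789, of which 21698 matched a RefSeq gene of GRCm38.p6 by Entrez number) were kept, and the brightest stood for a gene. M(CSF2) minus M(CSF1) was fitted over 19938 genes with limma 3.58.1 in R 4.3.3 (lmFit, eBayes, 2-sided, Benjamini-Hochberg over all genes, called at an adjusted p under 0.05). Every adjusted p in the text comes from this fit, except where an alternative or a range over alternatives is named. The procedure was tested on simulated data with independent errors, which cannot show whether the scatter of these arrays is partly technical. The number of arrays limits the precision.

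Genes named, besides the 2 members, were the 5 nearest in profile to each member, the 2 next protein-coding genes on each side, every called gene among the 10 on each side, up to 3 called genes per direction of each list, and Nlrp3, Pycard, Casp1, Il1b, Il18, Rora, Hvcn1, Cybb and Slc11a1. A further gene of this rule is not reported here. Other genes were named after their values were seen. Start windows came from RefSeq (GRCm38.p6). Alternatives were quantile normalization, array median centring, a filter on dim genes, the mean of probe sets, an intensity trend with robust variance, a replicate block and leaving out each array.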

Additional observations from a re-analysis of the deposited data

How the results depend on the processing

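The difference of Tmem176a ranged from -5.48 to -5.17 and that of Tmem176b from -6.62 to -6.09 over 12 alternatives, in the same direction in each. Of 18 counts and differences, 14 stayed within their limits under every alternative run. These limits allowed counts to shift. Genes for endosomal, lysosomal and phagosomal ion transport called higher numbered 15, but 19 with quantile normalization and 13 to 17 with 1 array left out. MHC class II genes called higher numbered 11, but 9 to 10 with 1 array left out. Both counted as kept. Cross-presentation genes called higher numbered 5 with array median centring instead of 8, and 5 to 7 with 1 array left out. Those called lower numbered 4 with dim genes filtered instead of 2, and 1 to 3 with 1 array left out. Neighbours called higher numbered 1 to 2 with 1 array left out, and neighbours called lower 0 with the mean of probe sets (limma, 1 at an unadjusted p under 0.05). Of 59 single genes named and called, 56 were called under every alternative that tested them, the exceptions being Casp1, Canx and Tra2a as given above. The labels do not say whether a shared replicate number pairs arrays of the groups. Deviations from the group means correlated at 0.0, -0.04 and -0.25 for the same number, and no array correlated best with its own number. Within a group such deviations sum to 0 and offset each other, so these values cannot exclude a pairing. With the number as a block 5072 genes were called instead of 5488, and the pair gave -5.33 and -6.27 as before. The arrays carry no detection calls, so signal near the olfactory receptor level limits what a low value can show.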

Other observations

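M(CSF2) replicate 2 exceeded the mean of the other 2 M(CSF2) arrays by 1.04 in Tmem176b, a larger excess than in all but 2 of 19938 genes. Those were the monocyte-attracting chemokine gene Ccl12 (1.47), at 5.03, 6.43 and 4.88 in M(CSF2), and the chitinase-like gene Chil3 (1.06), at 7.01, 8.25 and 7.38. Next came Fggy (0.98), a carbohydrate kinase gene, Cd300e (0.94) and Cd209g (0.92). Ccl12, Cd300e and Cd209g were brighter in M(CSF1), as was Tmem176b, while Chil3 and Fggy were brighter in M(CSF2). The excess was not shared by the large falls as a class. Among the 61 other genes called at least 8-fold lower in M(CSF2), its median was 0.02 and replicate 2 was the highest array of its group in 19, against 24 for replicate 1 and 18 for replicate 3. These genes were named after their values were seen.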
